A study of Mus musculus with 6 samples.

Results

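NRF2 (gene Nfe2l2), its inhibitor KEAP1 and 8 genes that NRF2 is known to control were followed in cultured mouse embryonic fibroblasts (MEFs), cells that in the embryo build connective tissue. The members were chosen by name and matched through their Ensembl identifiers to the GENCODE mouse annotation, which gave all 10 of the 10 named genes among the 56953 genes of the table. The study sequenced poly-A RNA from 3 WT libraries and 3 libraries labelled GαqKO. Per its methods, the second line is a Gαq/11 knock-out line that lacks the α subunits coupling many receptors to phospholipase C, and both lines came from another laboratory. All 6 cultures carried the same label for medium, serum and antibiotics, with no treatment and no time course. Each genotype was represented by a single line, so the genotype and other differences between the lines cannot be told apart. Levels are normalized counts, that is reads per gene divided by a size factor for each library. A gene was called at an adjusted p under 0.05 (limma on log2(normalized count + 1), Benjamini-Hochberg over the 14096 genes that reached 10 normalized counts in 3 or more libraries). These p-values measure the spread between libraries of each line. The labels were checked first on the genes they name. Gnaq, the gene of Gαq, had 1665.5, 1660.2 and 1746.6 in WT and 1959.7, 1930.9 and 1888.2 in GαqKO (log2 fold change 0.19), so it was not lower. Gna11 had 2140.6, 2179.9 and 2123.2 against 472.3, 463.7 and 418.9 (-2.25), so the labels are taken as names and every direction below is drawn from them. The study reported a lack of Gαq in the knock-out cells by Western blot and immunofluorescence. Those methods detect protein, which these RNA counts do not measure.

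NRF2 is a basic leucine zipper transcription factor. In resting cells KEAP1 holds it in the cytoplasm and hands it to a CUL3 ubiquitin ligase for destruction by the proteasome. Oxidants and electrophiles modify cysteines of KEAP1, NRF2 then escapes, enters the nucleus, pairs with a small MAF protein and binds the antioxidant response element, where BACH1 competes for the same sites. Its targets make and recycle glutathione, run the thioredoxin cycle, break down haem and reduce quinones. Most of this control acts on the NRF2 protein, which RNA libraries do not measure.

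The sequences in question are the letters around matches to the core of the antioxidant response element before the members' start sites. The motif searched was TGACNNNGC on both strands, and the variant TGAGNNNGC was added after the sequences had been read. The first 4 stretches below belong to Nqo1, Srxn1 and Gclm, the 3 targets with the largest rises, and to Txnrd1, the target that fell. They run 5′ to 3′ in the direction of the gene, come from GRCm39 with GENCODE start sites, and carry the match in capitals. The capitals read the motif itself on the strand of the gene or its reverse complement.
Nqo1, chr8:108130235-108130303, minus strand, match 339 bases before the start: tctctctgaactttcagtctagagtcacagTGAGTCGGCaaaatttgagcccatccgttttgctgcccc
Srxn1, chr2:151947256-151947324, plus strand, match 158 bases before the start: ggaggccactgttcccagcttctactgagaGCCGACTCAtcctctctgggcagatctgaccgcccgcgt
Gclm, chr3:122039042-122039110, plus strand, match 54 bases before the start: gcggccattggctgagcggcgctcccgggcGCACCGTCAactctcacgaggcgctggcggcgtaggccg
Txnrd1, chr10:82694918-82694986, plus strand, match 65 bases before the start: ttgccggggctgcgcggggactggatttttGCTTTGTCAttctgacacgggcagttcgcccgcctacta
The 3 further sites, of the NRF2 gene itself, of Srxn1 and of Prdx1, are given as short windows. Their wider stretches overlap exons annotated on the strand of the gene.
Nfe2l2, chr2:75535229-75535257, minus strand, match 262 bases before the start: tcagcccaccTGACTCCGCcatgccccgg
Srxn1, chr2:151947389-151947417, plus strand, match 45 bases before the start: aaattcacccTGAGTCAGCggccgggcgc
Prdx1, chr4:116542653-116542681, plus strand, match 78 bases before the start: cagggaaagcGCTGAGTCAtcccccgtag
Hmox1 and Gsr also had matches, and Txnrd1, Srxn1 and Prdx1 had further ones, all of which are not shown. The last pair of windows above also contains the AP-1 site, TGAGTCA or its reverse complement, so the same letters answer to both motifs. The matched letters of Nqo1 and of the Srxn1 site at 158 bases were the same, TGAGTCGGC, on opposite strands relative to the gene. The Srxn1 stretches lie in an exon of the antisense gene 9230118N01Rik, the Prdx1 window in an exon of the antisense gene AV051173, and the Txnrd1 stretch inside longer Txnrd1 transcripts and an exon of the antisense gene Gm38560. The Gclm stretch lies in an intron of an unnamed antisense gene, and the Nqo1 stretch in no annotated gene. The wider Nfe2l2 stretch overlaps exons of the antisense gene E030042O20Rik and of Gm75256, which is on the strand of Nfe2l2.

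Matches of this kind were common. Within 250 bases before to 50 bases after the start, TGACNNNGC occurred in 4 of the 10 members and in 12.5% of 21770 protein-coding promoters. In the same window TGAGNNNGC occurred in 2 members and in 17.1% of promoters, and either motif in 5 members and 27.3% of promoters. Over the 1000 bases before the start, either motif was found in 8 members, against 56.2% of all promoters. Keap1 and Gclc were the 2 members with neither motif in that window. A match describes letters only, and the data hold no measurement of binding at these sites.

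Of the 10 members, all of which passed the filter on low values, 8 were higher in the libraries labelled GαqKO, 1 was lower and 1 was not called. Among all genes tested 31.8% were called higher and 34.1% lower, so that 65.8% were called in either direction. The median log2 fold change of the members was 0.44, beside -0.01 over all genes tested. Regardless of direction, the median size of the change was 0.48 for the members and 0.39 over all genes tested. Only Nqo1 passed a log2 fold change of 1, a size that 10.2% of genes passed upwards and 10.5% downwards. The summed normalized counts of the members ranged from 13940 to 14344 in WT and from 17838 to 18659 in the libraries labelled GαqKO, and these ranges did not overlap. In such bulk libraries fewer cells of a kind and less RNA per cell cannot be told apart.

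**Figure D1:**
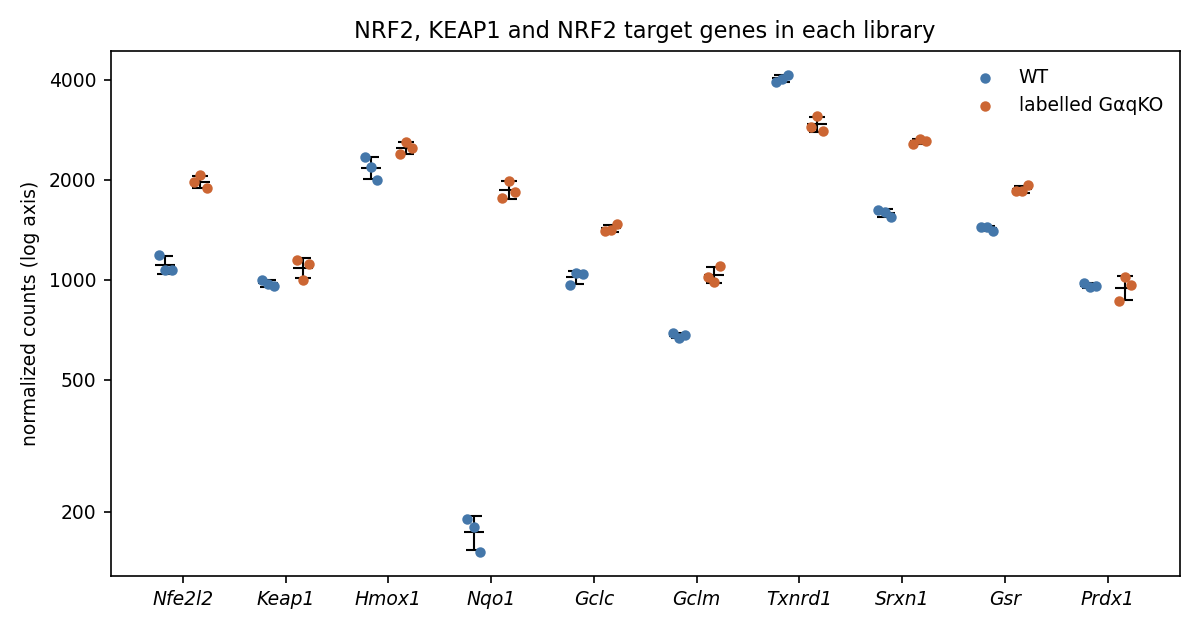
Normalized counts (log axis) of the 10 members in each library, with WT in blue and libraries labelled GαqKO in orange. Points are libraries, and black bars give the mean and SD (n = 3). Nqo1 stands furthest apart, with 151.7 to 190.0 in WT and 1759.7 to 1987.6 in GαqKO, Txnrd1 is lower in every GαqKO library, and the groups of Keap1 and Prdx1 overlap.

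Nfe2l2 (ENSMUSG00000015839.7, chr2:75504739-75534985, minus strand) encodes NRF2 itself. It had 1189.3, 1070.5 and 1071.8 normalized counts in WT replicates 1 to 3, and 1963.5, 2060.4 and 1892.2 in GαqKO replicates 1 to 3. Every library labelled GαqKO lay above every WT library. The transcript rose 1.78-fold, a log2 fold change of 0.83 (standard error 0.055, 95% interval 0.71 to 0.95, adjusted p = 1.43e-08 from limma), from 1110.5 ± 68.2 to 1972.0 ± 84.4 (SD, n = 3 each).

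Keap1 (ENSMUSG00000003308.16, chr9:21141026-21150679, minus strand) encodes the adaptor that presents NRF2 to the ligase. The WT libraries held 1000.3, 968.5 and 957.8 normalized counts and the libraries labelled GαqKO 1144.7, 1000.1 and 1112.8. The groups overlapped, since GαqKO replicate 2 was at the level of WT replicate 1. Its log2 fold change was 0.15 (standard error 0.059, 95% interval 0.03 to 0.28), with an adjusted p of 0.0352 in limma. This call was lost without GαqKO replicate 1 (adjusted p = 0.158), GαqKO replicate 3 (0.115), WT replicate 2 (0.0824) or WT replicate 3 (0.0604), all from limma. It was lost in DESeq2 as well (adjusted p = 0.233), and 25.8% of the Keap1 exon bases lie in exons of other genes.

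The 3 members of glutathione supply all rose. Gclc (ENSMUSG00000032350.10, chr9:77661797-77701770, plus strand) encodes the catalytic subunit of glutamate-cysteine ligase, the rate-limiting enzyme of glutathione synthesis. It went from 961.7, 1048.2 and 1038.2 normalized counts in WT to 1403.8, 1415.2 and 1466.2 in the libraries labelled GαqKO, with no overlap. The log2 fold change of Gclc was 0.49 (standard error 0.052, 95% interval 0.38 to 0.60, adjusted p = 1.58e-06 from limma). Gclm (ENSMUSG00000028124.16, chr3:122039126-122065061, plus strand), the modifier subunit that lowers the enzyme's feedback inhibition, had 689.2, 666.4 and 679.9 against 1021.7, 981.6 and 1095.7. Its groups were again separate, with a log2 fold change of 0.60 (standard error 0.057, 95% interval 0.48 to 0.73, adjusted p = 5.6e-07 from limma). Of the Gclm exon bases, 97.5% lie inside the span of other genes and 12.6% in their exons. Both subunits of the ligase stood higher, and the intervals of their log2 fold changes overlapped.

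Gsr (ENSMUSG00000031584.17, chr8:34142551-34188192, plus strand), the reductase that returns oxidized glutathione to its reduced form with NADPH, had 1435.8, 1444.5 and 1401.6 normalized counts in WT. In the libraries labelled GαqKO it had 1845.2, 1850.0 and 1926.5. The lowest of these was above the highest WT value, and the spread within each group was small (SD 22.7 and 45.6, n = 3 each). This gave a log2 fold change of 0.39 (standard error 0.045, 95% interval 0.30 to 0.49, adjusted p = 3.56e-06 from limma).

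The 3 members of the thioredoxin and peroxiredoxin cycle moved differently from each other. Srxn1 (ENSMUSG00000032802.9, chr2:151947436-151957687, plus strand), the sulfiredoxin that repairs overoxidized peroxiredoxins, had 1624.8, 1595.1 and 1544.1 normalized counts in WT and 2563.5, 2646.6 and 2622.3 in the libraries labelled GαqKO. All its GαqKO values were higher, with a log2 fold change of 0.72 (standard error 0.043, 95% interval 0.62 to 0.81, adjusted p = 5.1e-09 from limma). An antisense gene, 9230118N01Rik, shares 2.6% of the Srxn1 exon bases, and the strand setting of the counting is not stated, so reads from that stretch cannot be assigned to either gene.

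Txnrd1 (ENSMUSG00000020250.12, chr10:82669785-82733546, plus strand) encodes the cytosolic selenoenzyme that reduces thioredoxin with NADPH. Its WT libraries held 3935.5, 4020.7 and 4140.6 normalized counts and the libraries labelled GαqKO 2889.4, 3098.7 and 2808.6. It was the only member that fell, and its groups did not overlap. The log2 fold change was -0.46 (standard error 0.046, 95% interval -0.56 to -0.36, adjusted p = 9.92e-07 from limma), and it stayed negative and called in all 15 alternative settings.

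Prdx1 (ENSMUSG00000028691.13, chr4:116532123-116558398, plus strand) is the cytosolic peroxiredoxin that thioredoxin recharges. It had 976.3, 947.1 and 954.7 normalized counts in WT, and 861.1, 1017.5 and 961.7 in the libraries labelled GαqKO. The GαqKO libraries lay on both sides of the WT range, with the lowest and the highest value of all 6. The log2 fold change was -0.02 (standard error 0.063, 95% interval -0.16 to 0.11, adjusted p = 0.769 from limma), and it was 0.04 without GαqKO replicate 1. A pseudogene copy, Prdx1-ps, could share reads with Prdx1, which was not tested. Of the Prdx1 exon bases, 13.8% lie in exons of the antisense gene AV051173.

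Nqo1 (ENSMUSG00000003849.9, chr8:108113835-108129934, minus strand), the quinone reductase often used as a readout of NRF2, showed the largest difference among the members. The WT libraries had 190.0, 180.7 and 151.7 normalized counts and the libraries labelled GαqKO 1759.7, 1987.6 and 1835.8. The transcript rose 10.67-fold, from 174.1 ± 20 to 1861.0 ± 116.0 (SD, n = 3 each). The log2 fold change of 3.42 (standard error 0.084, 95% interval 3.23 to 3.60, adjusted p = 7.57e-13 from limma) was larger in size than that of 94.7% of the genes tested.

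Hmox1 (ENSMUSG00000005413.9, chr8:75820241-75827217, plus strand), which encodes the inducible haem oxygenase, had 2341.1, 2183.8 and 2000.1 normalized counts in WT and 2385.1, 2601.5 and 2494.4 in the libraries labelled GαqKO. The groups did not overlap, but GαqKO replicate 1 lay close to WT replicate 1. The size of the rise was 0.20 on the log2 scale (standard error 0.058, 95% interval 0.07 to 0.32, adjusted p = 0.00771 from limma). Without a trend in the prior spread the adjusted p was 0.068, past the threshold for a call.

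**Figure D2:**
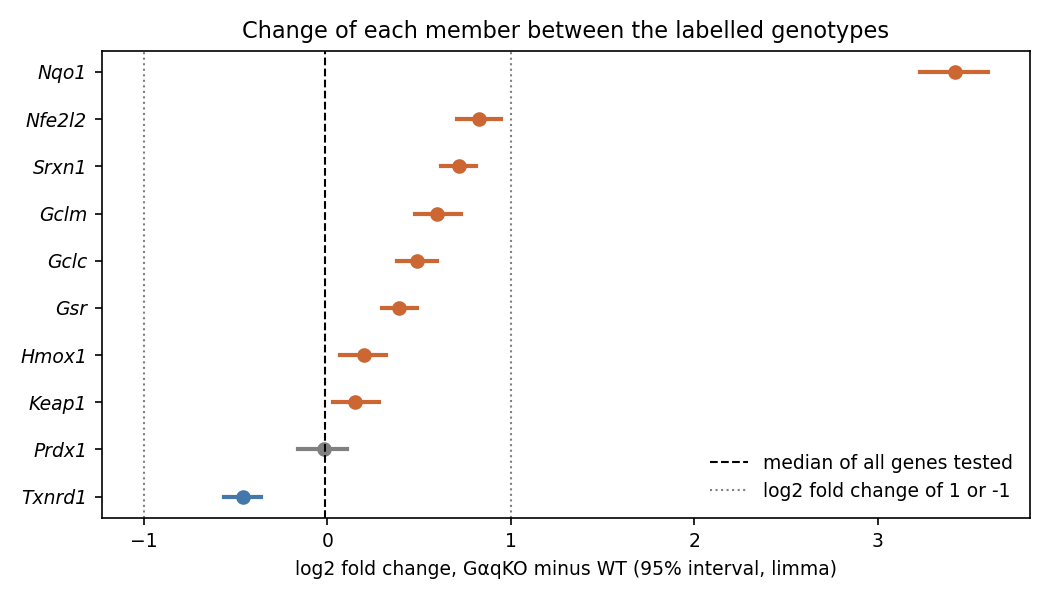
Log2 fold change of each member, GαqKO minus WT, with its 95% interval from limma. Orange marks members called higher, blue the one called lower and grey the one not called. The dashed line is the median of all genes tested (-0.01) and dotted lines mark 1 and -1. Nqo1 at 3.42 is the only member past a dotted line, and Txnrd1 at -0.46 is the only one whose interval lies below 0.

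Levels were also compared between members per kb of merged exon length. In WT, Hmox1 was highest at 1236.5 ± 97.0 normalized counts per kb and Txnrd1 next at 569.1 ± 14.5 (SD, n = 3 each). Prdx1 (230.6 ± 3.6) stood above Gsr (205.7 ± 3.3) and Nfe2l2 (203.4 ± 12.5), which overlapped each other. Keap1 (171.4 ± 3.9) overlapped Srxn1 (169.1 ± 4.3), and Srxn1 overlapped Gclc (162.1 ± 7.6). Gclm (85.3 ± 1.4) and Nqo1 (63.4 ± 7.3) were the lowest, in that order, and were separate from their neighbours.

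The order per kb differed in the libraries labelled GαqKO. Hmox1 remained highest at 1417.7 ± 61.5 normalized counts per kb, and Nqo1 was second at 677.2 ± 42.2 (SD, n = 3 each). Below them came Txnrd1 (413.8 ± 21.1) and Nfe2l2 (361.1 ± 15.5), followed by Srxn1 (278.0 ± 4.5) and Gsr (270.1 ± 6.6), which overlapped. Gclc (228.0 ± 5.3) and Prdx1 (227.5 ± 19.1) could not be separated. Keap1 (190.8 ± 13.3) lay below both, and Gclm (129.8 ± 7.3) was lowest. Merged exons of all isoforms are longer than any single transcript, so these levels depend on the annotation.

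**Figure D3:**
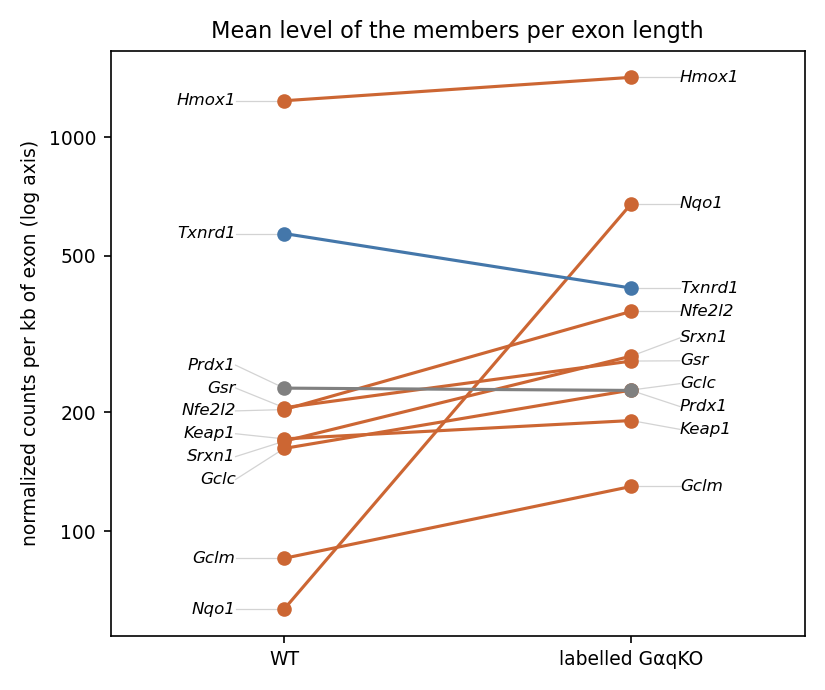
Mean normalized counts per kb of merged exon (log axis) of each member in WT and in the libraries labelled GαqKO, joined by a line (orange called higher, blue called lower, grey not called). Thin grey lines join each name to its point. Nqo1 goes from the lowest level, 63.4, to the second highest, 677.2, while Hmox1 is highest in both.

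The partners, relatives and turnover factors of NRF2 moved mostly downwards, with 2 of 17 higher, 11 lower and 4 not called. Their median log2 fold change was -0.26, beside -0.01 for all genes tested. Among all genes tested 31.8% were called higher and 34.1% lower, the shares to set beside the counts of each list below. Both BACH repressors fell. Bach1, which competes with NRF2 for its sites, had 854.1, 871.4 and 864.2 normalized counts in WT and 502.4, 448.6 and 454.2 in the libraries labelled GαqKO (log2 fold change -0.88, standard error 0.063, adjusted p = 2.86e-08 from limma). Bach2, its relative in lymphoid cells, had 113.8, 116.6 and 151.7 against 15, 17.3 and 18.1 (log2 fold change -2.84, standard error 0.206, adjusted p = 3.52e-08 from limma). Neither repressor had overlapping groups.

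The small MAF partners did not share a direction. Maff rose from 541.2 ± 19.7 to 965.5 ± 53.4 normalized counts (log2 fold change 0.83) and Mafg from 3958.3 ± 167.7 to 4881.3 ± 100.8 (0.30), while Mafk fell from 1063.3 ± 52.2 to 698.8 ± 18.6 (-0.60; SD, n = 3 each). Of the relatives of NRF2, Nfe2l3 (NRF3) fell from 131.4 ± 15.5 to 22.5 ± 1.5, with 54.3% of its exon bases in exons of other genes, and Nfe2l1 (NRF1) was not called (log2 fold change 0.04, adjusted p = 0.342 from limma).

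Among the factors that remove NRF2, Cul3, the scaffold of the KEAP1 ligase, was not called (log2 fold change 0.12, adjusted p = 0.165 from limma). The ring protein Rbx1 of the same ligase fell from 1428.9 ± 31.5 to 1080.9 ± 53.7 normalized counts (log2 fold change -0.40). Gsk3b, the kinase that marks NRF2 for the other route of degradation, fell from 2707.5 ± 172.7 to 1600.0 ± 47.5 (-0.76; SD, n = 3 each). That route ends at the F-box proteins β-TrCP1 and β-TrCP2, of which Fbxw11 fell slightly (-0.12, adjusted p = 0.0343) and Btrc was not called (-0.21, adjusted p = 0.0557, both from limma). Syvn1, the ligase HRD1 of the endoplasmic reticulum, fell by 0.76 on the log2 scale. Dpp3 and Sqstm1, whose proteins bind KEAP1 in competition with NRF2, had log2 fold changes of -0.69 and -0.25, and both passed the test. Of the rest of the list of partners, relatives and turnover factors, the coactivator Crebbp was lower (-0.26) and Dpp9 was not called (-0.06). Btrc, Cul3, Nfe2l1 and Dpp9 were named after their values were seen.

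The wider glutathione list held 37 genes, of which 23 passed the filter on low values, 13 were higher, 7 lower and 3 not called, with a median log2 fold change of 0.49. Past a log2 fold change of 1 or -1 there were 8 higher and 3 lower, beside 10.2% and 10.5% of all genes tested. The microsomal transferase Mgst2 had 6.3, 1.0 and 1.0 normalized counts in WT and 129.6, 113.3 and 109.8 in the libraries labelled GαqKO. Gstm1, a cytosolic transferase, went from 124.3, 92.3 and 82.4 to 311.8, 336.5 and 311.2 (log2 fold change 1.69, standard error 0.141, adjusted p = 1.39e-07 from limma). Neither gene had overlapping groups, and log2(normalized count + 1) understates the change of a gene as low as Mgst2 in WT. Mgst3 rose from 39.3 ± 3.9 to 109.6 ± 6.9, and the glutathione peroxidase Gpx1 from 77.1 ± 16.6 to 193.2 ± 26.4 (SD, n = 3 each). Of the Gpx1 exon bases, 85.3% lie in exons of another gene. Gstm1 belongs to a family of close copies, and how reads were shared between them was not tested.

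Some genes of this list were named after their values were seen. Slc7a11, the cystine carrier that feeds glutathione synthesis, had 316.4, 341.0 and 343.0 normalized counts in WT and 577.5, 635.9 and 639.5 in the libraries labelled GαqKO, with separate groups (log2 fold change 0.89, standard error 0.072, adjusted p = 1.14e-07 from limma). Its partner chain Slc3a2 rose by less (0.23), and the exporter Abcc1 rose from 1647.0 ± 116.0 to 2316.0 ± 92.6 (SD, n = 3 each). Of this list 13 genes were called higher and 7 lower. The lower ones were Abcc4 (log2 fold change -0.53), Ggct (-1.08), Gstm2 (-1.10), Gpx4 (-0.38), Glrx2 (-0.34), Gstp1 (-0.28) and Chac1. Chac1, which breaks glutathione down, fell from 570.6 ± 54.6 to 269.8 ± 48.3, and Gss, the second enzyme of synthesis, was low and not called (16.7 ± 6.6 and 8.5 ± 3.3). Of the Gss exon bases, 90.2% lie inside the span of other genes and 32.7% in their exons. The part of this overlap in its low counts was not tested. Gstt2 was listed at 0 in each WT library, and it had 25.4, 37.0 and 24.2 normalized counts in the libraries labelled GαqKO. Against a floor of 3 counts per library this was at least 9.6-fold higher, where the floor covers counting error only.

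Other genes of the thioredoxin and peroxiredoxin system were divided, with 5 of 15 tested higher, 5 lower and 5 not called, and a median log2 fold change of -0.07. The sestrins, stress-induced partners of this system, did not share a direction. Sesn1 rose from 300.8 ± 14.4 to 860.0 ± 17.2 normalized counts (log2 fold change 1.51) and Sesn2 fell from 704.2 ± 2.5 to 352.0 ± 29, while Sesn3, named after its values were seen, fell from 527.1 ± 68.5 to 413.3 ± 35.4 (SD, n = 3 each). Both other thioredoxin reductases rose while Txnrd1 fell, with log2 fold changes of 0.61 for the mitochondrial Txnrd2 and 0.57 for Txnrd3. The same contrast held for the thioredoxins, named after their values were seen, with -0.35 for the cytosolic Txn1 and 0.43 for the mitochondrial Txn2. Per kb of merged exon, the level of Txnrd1 in the libraries labelled GαqKO (413.8 ± 21.1 normalized counts) still stood above those of Txnrd2 (29.4 ± 0.2) and Txnrd3 (73.2 ± 5.3; SD, n = 3 each). Among the other peroxiredoxins, also named after their values were seen, Prdx2, Prdx5 and Prdx6 were not called, Prdx3 was higher (0.31) and Prdx4 lower (-0.23).

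Of the genes of haem breakdown and iron storage, 4 of 10 tested were higher, 5 lower and 1 (Fech) not called, with a median log2 fold change of -0.08. Slc48a1, a haem transporter, had 2041.4, 2107.0 and 1902.4 normalized counts in WT and 6632.3, 6651.8 and 6712.9 in the libraries labelled GαqKO (log2 fold change 1.73, standard error 0.045, adjusted p = 1.14e-12 from limma). The ferritin heavy chain Fth1, which stores the iron that haem oxygenase releases, went from 11308.6, 10152.4 and 9604.4 to 22170.4, 24232.5 and 23927.1 (1.18, standard error 0.058, adjusted p = 5.56e-10 from limma). Groups were separate for both, but 82.1% of the Slc48a1 exon bases and 41.5% of those of Fth1 lie in exons of another gene. The ferritin light chain Ftl1, named after its values were seen, was slightly lower (431.1 ± 38.3 and 375.1 ± 23.3, SD, n = 3 each). Its log2 fold change was -0.20 (adjusted p = 0.0499 from limma), with 34.6% of its exon bases in exons of other genes. Blvrb, which reduces biliverdin, rose from 128.6 ± 16.1 to 254.5 ± 29.5, and the transferrin receptor Tfrc fell from 4996.1 ± 29.1 to 3670.0 ± 123.8 (SD, n = 3 each). The iron exporter Slc40a1, named after its values were seen, had 47.0, 47.6 and 45.8 in WT and was listed at 0 in each GαqKO library, which is at least 15.6-fold lower against the floor.

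Of the quinone, aldehyde and xenobiotic enzymes beside Nqo1, 5 of 14 tested were higher, 8 lower and 1 (Ephx1) not called, with a median log2 fold change of -0.53. Aldh3a1, an aldehyde dehydrogenase, was the one called gene higher past a log2 fold change of 1, with 9.4, 7.8 and 10.2 normalized counts in WT and 317.4, 348.0 and 320.2 in the libraries labelled GαqKO (log2 fold change 5.03, standard error 0.184, adjusted p = 2.88e-11 from limma). The carbonyl reductases, neighbours on chromosome 16, both fell. Cbr1 (chr16:93402741-93407393) had 385.3, 310.9 and 313.5 against 4.7, 5.8 and 8.1 (log2 fold change -5.58, standard error 0.223, adjusted p = 6.84e-11 from limma). Cbr3 (chr16:93479726-93487879) had 145.1, 170.0 and 129.3 in WT and was listed at 0 in each GαqKO library, which is at least 49.4-fold lower against the floor. Htatip2 fell from 138.8 ± 16.5 to 9.3 ± 1.8 (SD, n = 3 each). In this list 6 genes were lower past a log2 fold change of -1, which 10.5% of all genes tested passed.

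The genes of NADPH supply, which Nqo1, Gsr and Txnrd1 draw on, had 2 of 6 tested higher, 2 lower and 2 (Me1 and Taldo1) not called, with a median log2 fold change of 0.02. Tkt rose from 1569.8 ± 74.1 to 2392.1 ± 98.4 normalized counts and Pgls from 1066.8 ± 67.6 to 1470.3 ± 63.5. Pgd fell from 2824.8 ± 75.1 to 1877.8 ± 58.8 and Idh1 from 368.0 ± 18 to 312.5 ± 10.6 (SD, n = 3 each). G6pdx, the entry enzyme of the pentose phosphate pathway, is listed at 0 in every library, as is Txnip. For both genes 100.0% of the exon bases lie inside the span of another gene, and a 0 in this table is given only as listed.

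**Figure D4:**
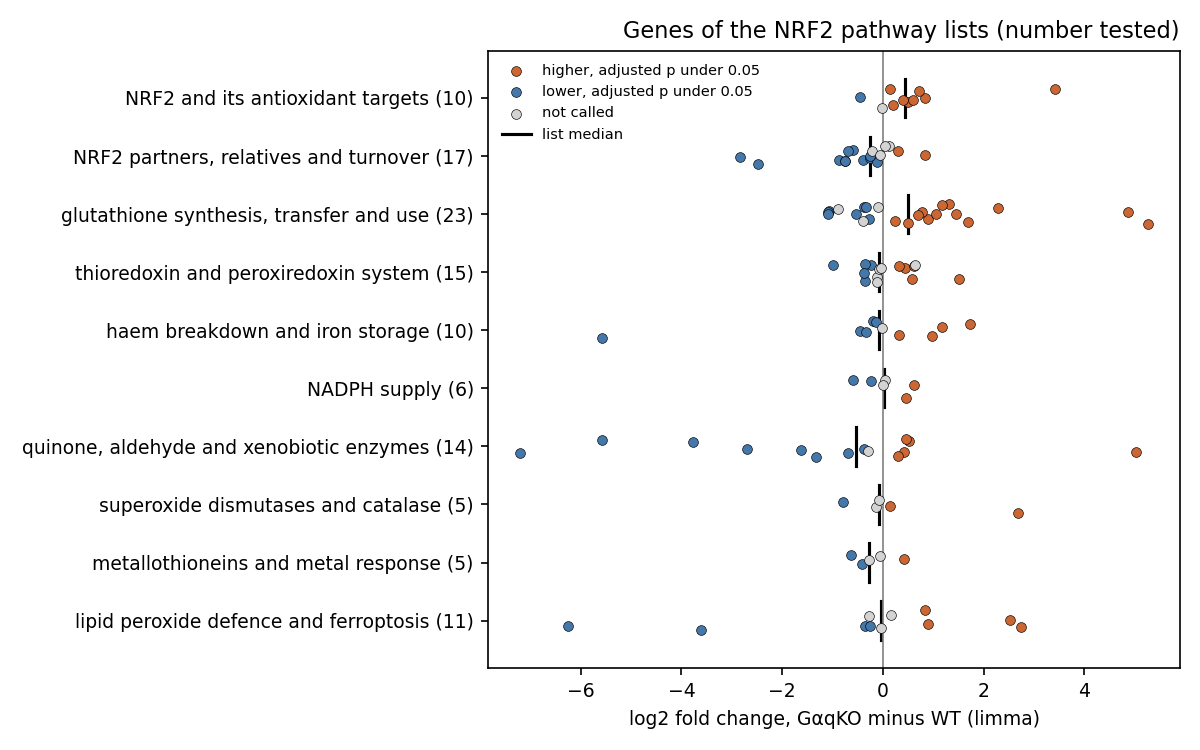
Log2 fold change (GαqKO minus WT, limma) of the genes tested in each list, with the number tested in parentheses. Orange points were called higher, blue lower and grey not called, and black bars are list medians. Genes listed at 0 in one group are drawn at their fitted value, which is no bound. The members (median 0.44) and the glutathione list (0.49) have medians to the right of 0, and the regulators (-0.26) and xenobiotic enzymes (-0.53) to the left.

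Facts of the whole series bear on these values. Library sums of normalized counts ran from 11392429 to 11483486, and the reads recovered for 5 libraries ran from 9853000 to 12229175. Mitochondrial genes took 2.35% to 2.55% of the normalized counts in WT and 2.69% to 3.02% in GαqKO. The 12 fibroblast markers summed to between 89881 and 95693 normalized counts in WT and between 64800 and 68247 in GαqKO, led by Vim (41784.9 and 33507.6). Of the 11 tested, 5 were higher and 6 lower in GαqKO. Col1a1 (16671.0 and 5774.5), Col5a1 (5700.9 and 1950.7) and Fn1 (11826.4 and 7117.0) were among the lower. Pdgfra, Dcn and Thy1 were near absent in WT (19.6, 32.1 and 0.7 against 2319.7, 1662.8 and 64.9). The 8 epithelial markers summed to between 1044 and 1147 in WT and between 11.08 and 30.06 in GαqKO, with Krt19, Krt14 and Cdh1 lower in GαqKO and Epcam at 3.1 and 4.6. The 11 macrophage and leukocyte markers summed to between 223.9 and 228.3 in WT and between 445.1 and 478.7 in GαqKO. Of the 3 tested, Cd14 was higher (101.7 and 364.5), Cd68 lower (93.0 and 66.9) and Csf1r not called (15.6 and 11.1). Ptprc stood at 1.7 and 1.3. Itgam was listed at 0, with 99.1% of its exon bases inside the span of another gene. Endothelial markers summed to at most 40.47 and erythroid markers to at most 8.143 in any library. The part of these marker differences in the members' changes was not tested.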

How the data were processed

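Poly-A RNA of 3 WT and 3 GαqKO MEF libraries was sequenced with paired reads of 150 bases. The authors aligned reads with Rbowtie2 to GRCm39, obtained gene counts with featureCounts and GENCODE release 32, and used DESeq2. Tool versions and the strand setting are not given in the sources used here. The deposited values are a signal: normalized counts, meaning each gene count over 1 size factor per library. Samples were grouped by their genotype labels. Names and coordinates came from GENCODE release 39 on GRCm39, which matched 56310 of 56953 identifiers (98.9%).

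The members and lists were chosen with earlier results of these data known. Limma, with a trend in the prior spread, took log2(normalized count + 1) of all 6 libraries, for genes that reached 10 normalized counts in 3 or more of them, with two-sided p-values adjusted by Benjamini-Hochberg over all genes tested. In 5 libraries 100.0% of nonzero values were whole reads (tolerance 0.1), and edgeR's quasi-likelihood test and DESeq2 were run on these. The reads of GαqKO replicate 3 did not pass the check of the unit and were not used. A group with at most 3 counts in each library was taken as at the floor, which covers counting error only. Genes named were the members, the called regulators and, from each other list, up to 4 called genes of largest change and a mean of 50 normalized counts or more. Genes beyond these, among them those given as not called or listed at 0, were named after their values were seen. Alternatives changed the scaling (TMM), filter, pseudocount, prior spread, replicate block and test, or left out each library. Scripts were tested on simulated data. Versions were R 4.3.3, edgeR 4.0.16, limma 3.58.1, DESeq2 1.42.0 and Python 3.11.15 with numpy 2.4.6, pandas 2.3.3 and matplotlib 3.10.9.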

Additional observations from a re-analysis of the deposited data

How the results depend on the processing

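Of 150 log2 fold changes (10 members under 15 alternatives), 141 kept their direction and their side of the threshold, 8 lost a call and 1 turned direction. Over these alternatives 6 to 8 members were higher, 1 was lower and only Nqo1 passed a log2 fold change of 1. Keap1 lost its call in 7 alternatives and Hmox1 in 1, no trend in the prior spread (limma adjusted p = 0.068). Keap1's cases beyond those given with its values were no filter on low values (limma adjusted p = 0.0547) and no trend in the prior spread (0.102). The cause was not tested. Prdx1 turned to 0.04 without GαqKO replicate 1 and ranged from -0.08 to 0.04 as single libraries were left out, never called. Ranges of the other log2 fold changes were 0.80 to 0.89 for Nfe2l2, 3.32 to 3.48 for Nqo1 and -0.50 to -0.40 for Txnrd1. With the replicate block 8 members were higher and 1 lower, and calls over all genes went from 9279 to 8962. Deviations of same-numbered libraries correlated at -0.045, -0.148 and -0.064. These values showed no pairing by number, which 3 libraries a group cannot exclude. The block changed no member's call. The number of genes called ran from 7411 (DESeq2, 5 libraries) to 9625 (no filter). With 3 libraries a group, a difference the size of that of Prdx1 could not be resolved from the spread.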

Other observations

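Defences next to the NRF2 targets also differed. Of 5 superoxide dismutase and catalase genes tested, 2 were higher, 1 lower and 2 (Sod1 and Ccs) not called, with a median log2 fold change of -0.07 beside -0.01 for all genes tested. The secreted dismutase Sod3 had 385.3, 355.5 and 327.7 normalized counts in WT and 2277.1, 2332.1 and 2290.0 in GαqKO (log2 fold change 2.69, standard error 0.062, adjusted p = 3.78e-13 in limma). The mitochondrial Sod2 rose little (0.14), and catalase (Cat), which removes hydrogen peroxide in peroxisomes, fell from 405.2 ± 48.2 to 233.4 ± 11.4 (SD, n = 3 each). Of 5 metallothionein and metal response genes tested, Mt1 was higher (0.41), the zinc exporter Slc30a1 (-0.63) and the metal-sensing factor Mtf1 (-0.42) were lower, and Mt2 and Slc39a14 were not called (median -0.27).

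Of 11 genes of lipid peroxide defence and ferroptosis tested, 4 were higher, 4 lower and 3 (Ncoa4, Vkorc1l1 and Nox1) not called, with a median of -0.03. Nox4, an oxidase that makes hydrogen peroxide, had 35.5, 40.8 and 42.7 normalized counts in WT and 228.2, 232.4 and 237.7 in the libraries labelled GαqKO (log2 fold change 2.53, standard error 0.143, adjusted p = 2.49e-09 from limma). Cyba, the membrane subunit that NOX enzymes including NOX4 pair with, had 152.5, 156.4 and 157.8 against 0.9, 3.5 and 0.0. The groups of Nox4 and of Cyba were separate, in opposite directions. Gch1, which starts tetrahydrobiopterin synthesis, rose from 47.4 ± 10.0 to 317.3 ± 21.6, and Acsl4, which loads polyunsaturated fatty acids into phospholipids, from 1000.3 ± 64.1 to 1858.6 ± 40.1 (SD, n = 3 each). Cybb, named after its values were seen, was at least 12.4-fold lower against the floor of 3 counts per library.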
